A study of Homo sapiens with 15 samples.

Results

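Cholesterol and fatty acid synthesis genes were examined in MDA-MB-231 cells, a human line from a breast cancer that lacks hormone receptors and HER2 amplification, after stable knockdown of the transcriptional corepressor CtBP2 or after exposure to either of the CtBP inhibitors HIPP and P4. The set held 32 genes out of 30992 genes on the arrays, and its members were all probes whose gene name or current symbol was on a list of the pathway: 18 enzymes of the sterol branch, the sterol transport protein STARD4, 5 regulators and 8 enzymes of the fatty acid branch. The older names SC4MOL and SC5DL are kept here for MSMO1 and SC5D. All 32 members were found, with 51 probes.

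Each treatment was hybridised to 5 two-colour arrays described as biological replicates, with RNA of the treated MDA-MB-231 cells in the Cy5 channel and RNA of control cells in the Cy3 channel of every array. The treated cells were shCtBP2 (MDA-MB-231 with a stably expressed short hairpin RNA against CtBP2, selected with puromycin), HIPP and P4, and per the labels the cells were collected 24 h after treatment. Per the labels the Cy3 channel of all arrays held untreated MDA-MB-231 cells. The methods of the study set the knockdown against a scrambled hairpin instead, so which control the shCtBP2 arrays carried is not settled, nor is it stated whether arrays shared control RNA. HIPP and P4 are both made from phenylpyruvate and differ in that HIPP carries a hydroxyimino group where P4 carries a hydrazone. Their concentrations on these arrays are not given in the sources used here, and those named for the growth curves differ, so their values are set side by side. Dyes were not swapped, so a dye effect of a probe cannot be told apart from a treatment effect in a single ratio, but an effect shared by all arrays cancels in the difference between treatments.

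All values below are log2 ratios of treated over control, averaged over the probes of a gene, and a ratio compares the same probe within an array. The software marked 65.2% to 77.5% of the gene spots of an array as well above background in Cy5 and 64.9% to 81% in Cy3, and marked 0 as saturated. Correlations between arrays of a treatment, over all genes, ran from 0.3 to 0.57 for shCtBP2, from 0.416 to 0.754 for HIPP and from 0.0127 to 0.695 for P4, the lowest being between P4 replicates 1 and 3. CTBP2 itself lay below control on each shCtBP2 array (from −0.59 to −0.29, mean −0.41 ± 0.11, SD, n = 5), with a limma adjusted p of 0.0595. Its 2 probes read −0.42 and −0.39 there (limma adjusted p over all probes = 0.152 and 0.0171). By real-time PCR the study reports a larger fall of this mRNA against scramble. CTBP2 was 0.57 ± 0.36 in HIPP (limma adjusted p = 0.00256) and 0.17 ± 0.35 in P4 (limma adjusted p = 0.344), where its probes read 0.53 and −0.19. The mesenchymal markers VIM, CD44, CAV1 and AXL were well above background in the control channel of all 15 arrays while of the luminal and hormone receptor genes GATA3, FOXA1 and ERBB3 were so on 15, ESR1 on 11 and PGR on 0. Of markers of other cell types PECAM1 was well above background there on 15 arrays, CD3E on 14, PTPRC on 2 and ALB on 0. The mesenchymal markers went both ways. CAV1 was lower in HIPP (−2.07 ± 0.29, SD, n = 5, limma adjusted p = 5.4e-09) and in P4 (−1.38 ± 0.18, SD, n = 5, limma adjusted p = 7.6e-07). CD44 was called higher in HIPP (1.40 ± 0.28, SD, n = 5, limma adjusted p = 7.0e-08) and read 0.45 ± 0.19 in P4 (limma adjusted p = 0.0038). AXL read −1.05 and −0.75 (limma adjusted p = 7.9e-06 and 0.0005), and VIM −0.17 and −0.03. Of the other markers, PECAM1 was called lower in HIPP (−1.95, limma adjusted p = 6.5e-08) and read −0.74 in P4 (limma adjusted p = 0.0013), and ERBB3 read −0.44 and −0.56 (limma adjusted p = 0.0075 and 0.0029). The part of these shifts in the results below was not tested.

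As background, cholesterol is built from acetyl-CoA through mevalonate, isoprenoid units, squalene and lanosterol, and the transcription factor SREBP-2, encoded by SREBF2, switches on nearly every enzyme of this route. SREBP proteins are made in the endoplasmic reticulum, where INSIG proteins hold the escort protein SCAP while sterols are plentiful; when sterols run low SCAP carries SREBP to the Golgi, and the cleaved factor enters the nucleus. SREBP-1c, encoded by SREBF1, mainly drives fatty acid synthesis, and its gene, like ABCG1 and MYLIP, is also a target of the oxysterol-sensing liver X receptors.

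Enzymes of the sterol branch were called higher under both inhibitors, 5 of 16 tested in HIPP and 6 of 15 in P4, while 0 of 17 were called in shCtBP2 when the probes of a gene were averaged. By limma adjusted p without a fold threshold 12, 14 and 1 of them were higher. A gene was called when its limma adjusted p was at most 0.05 and its fold change reached the threshold of the study's methods, 1.5-fold for shCtBP2, 2.5-fold for HIPP and 1.8-fold for P4. In HIPP 6 of 28 tested members were called higher (HMGCS1, SQLE, CYP51A1, SC4MOL, DHCR7 and INSIG1) and 0 lower, beside 3.43% of all genes tested called higher and 3.61% lower; with normexp and loess 3 were called higher. In P4 8 of 28 tested members were called higher (HMGCS1, SQLE, CYP51A1, SC4MOL, SC5DL, DHCR7, INSIG1 and ACLY) and 1 lower (SREBF1), beside 4.29% and 4.17% of all genes. In shCtBP2 2 of 29 tested members were called higher (INSIG1 and FADS1) and 0 lower, beside 3.34% and 3.23%. The remaining 22 members were called in no treatment. Since arrays of both inhibitors may share control RNA, their lists of called genes are given separately.

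With adjusted p alone and no fold threshold, 18 members were higher and 5 lower in HIPP, against 24.9% and 23.9% of all genes tested. In P4 20 members were higher and 1 lower, against 17.1% and 14.8%. In shCtBP2 3 members were higher and 0 lower, against 6.59% and 6.95%. At an equal threshold of 1.5-fold 14 members were higher and 3 lower in HIPP, beside 16.1% and 16.4% of all genes tested, and 13 higher and 1 lower in P4, beside 8.98% and 8.53%.

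**Figure D1:**
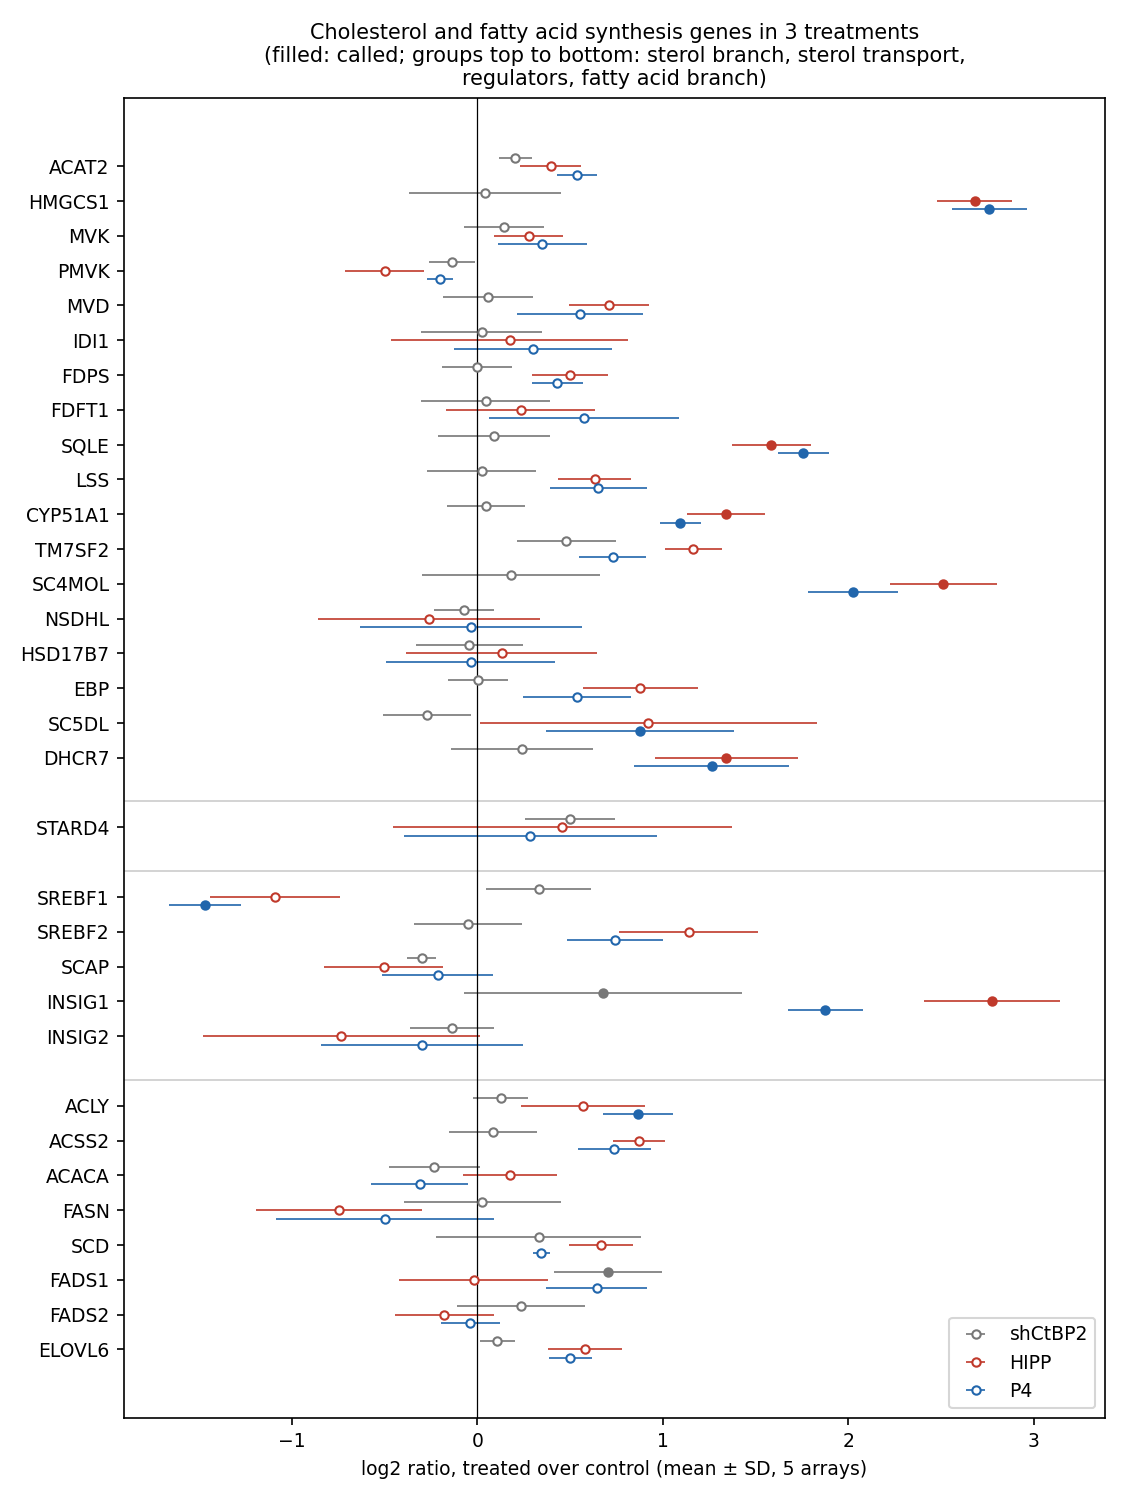
Mean log2 ratio of treated over control (x axis) for each of the 32 members (y axis, grouped by branch), with bars of 1 SD over 5 arrays and filled points where the gene was called. HMGCS1, SC4MOL, INSIG1 and SQLE lie farthest to the right in HIPP and P4, SREBF1 lies to the left, and most shCtBP2 points lie near 0.

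HMGCS1, the synthase that makes the precursor of mevalonate, had among the 2 largest mean rises of the set in each inhibitor. Its log2 ratios in HIPP replicates 1 to 5 were 2.55, 2.81, 2.85, 2.39 and 2.81, a 6.41-fold mean rise (2.68 ± 0.20, SD, n = 5, limma adjusted p = 4.0e-09). In P4 they were 3.04, 2.51, 2.75, 2.64 and 2.87, a 6.77-fold mean rise (2.76 ± 0.20, SD, n = 5, limma adjusted p = 1.2e-08). The shCtBP2 arrays gave −0.35, 0.18, −0.42, 0.52 and 0.29 (0.04 ± 0.41, limma adjusted p = 0.858). Every inhibitor array lay above every knockdown array. Its 2 probes, at chr5:43326838-43326897 and chr5:43325874-43325933 of hg17, read 2.97 and 2.40 in HIPP and 2.62 and 2.90 in P4.

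SC4MOL, the sterol methyl oxidase that removes methyl groups from lanosterol-derived intermediates, was called higher under both inhibitors. The HIPP arrays read 2.43, 2.75, 2.81, 2.09 and 2.48 (2.51 ± 0.29, SD, n = 5, 5.7-fold, limma adjusted p = 1.8e-08). The P4 arrays read 1.68, 2.17, 2.26, 1.87 and 2.15 (2.02 ± 0.24, SD, n = 5, 4.07-fold, limma adjusted p = 7.6e-07). In shCtBP2 the values were −0.48, 0.43, −0.15, 0.70 and 0.42, on both sides of 0 and clear of the inhibitor arrays (0.18 ± 0.48, limma adjusted p = 0.487). Of its 2 probes, the one at chr4:166620795-166620854 (hg17) read 2.26 ± 0.60 in HIPP and 1.97 ± 0.68 in P4. The other, at chr4:166621747-166621806, is listed on the opposite strand and was well above background in the control channel of 10 of 15 arrays; it read 2.77 ± 0.44 and 2.08 ± 0.33. With normexp and loess SC4MOL read 1.02 in HIPP, under the 2.5-fold threshold and below SQLE, CYP51A1 and DHCR7, and 1.05 in P4.

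SQLE is the epoxidase that oxidises squalene, an oxygen-requiring and rate-controlling step. It read 1.39, 1.56, 1.93, 1.44 and 1.59 in HIPP (1.59 ± 0.21, SD, n = 5, limma adjusted p = 4.9e-08) and 1.65, 1.79, 1.85, 1.59 and 1.91 in P4 (1.76 ± 0.14, SD, n = 5, 3.38-fold, limma adjusted p = 1.5e-07). In shCtBP2 it read −0.27, 0.14, −0.07, 0.54 and 0.10 (0.09 ± 0.30, limma adjusted p = 0.663), so the lowest inhibitor array stood above the highest knockdown array. Its single probe lies at chr8:126103625-126103684 (hg17).

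CYP51A1, the lanosterol demethylase, has probes at chr7:91386117-91386149 and chr7:91387260-91387319 (hg17). It read 1.36, 1.15, 1.55, 1.10 and 1.54 in HIPP (1.34 ± 0.21, SD, n = 5, 2.53-fold, limma adjusted p = 6.1e-08). The P4 arrays read 1.18, 1.09, 1.22, 0.94 and 1.03 (1.09 ± 0.11, SD, n = 5, 2.14-fold, limma adjusted p = 2.3e-06). In shCtBP2 it read −0.19, −0.02, −0.09, 0.28 and 0.25 (0.05 ± 0.21, limma adjusted p = 0.797), below every inhibitor array. The HIPP mean sat just over the 2.5-fold threshold and fell under it, to 1.29 in each case, without HIPP replicate 3 or without HIPP replicate 5. It also read less with normexp and loess (1.24), with background-subtracted signals (1.20) and with the brightest probe (1.17).

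DHCR7, the reductase that completes cholesterol, has 1 probe at chr11:70823162-70823221 (hg17). In HIPP it read 0.88, 1.24, 1.14, 1.60 and 1.86 (1.34 ± 0.39, SD, n = 5, 2.54-fold, limma adjusted p = 1.5e-05), and in P4 1.47, 0.67, 0.98, 1.54 and 1.66 (1.26 ± 0.42, SD, n = 5, 2.4-fold, limma adjusted p = 0.000101). The shCtBP2 arrays read −0.26, 0.25, −0.01, 0.61 and 0.62 (0.24 ± 0.38, limma adjusted p = 0.388). All inhibitor arrays were above all knockdown arrays, by little at the nearest pair. The HIPP mean dropped under the threshold, to 1.28 and 1.21, without HIPP replicate 4 and without HIPP replicate 5, and to 1.29 with normexp and loess and 1.23 with background-subtracted signals. With slide as a fixed block DHCR7 in P4 read 1.96.

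SC5DL, the desaturase that acts before DHCR7, was the least even of the called enzymes. The P4 arrays read 0.22, 1.26, 1.49, 0.66 and 0.76 (0.88 ± 0.50, SD, n = 5, 1.84-fold, limma adjusted p = 0.0172). The HIPP arrays read 1.64, 0.75, 1.65, −0.55 and 1.12, a mean of 0.92 ± 0.91 that passed the test (limma adjusted p = 0.00775) but not the fold threshold, with replicate 4 below control. In shCtBP2 it read −0.53, −0.31, −0.44, 0.04 and −0.09 (−0.27 ± 0.24, limma adjusted p = 0.543). The P4 call was lost without P4 replicate 2 (0.78, limma adjusted p = 0.0577), without P4 replicate 3 (0.73, limma adjusted p = 0.0657) and with slide as a fixed block (0.33, limma adjusted p = 0.666). It was also lost with normexp and loess (0.81) and background-subtracted signals (0.84), both under 1.8-fold, and with the methods' test of the channel signals (adjusted p = 0.0687), and so it held under 9 of 15 alternatives. Its probes lie at chr11:120683611-120683670 and chr11:120683977-120684036 (hg17).

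The other 12 enzymes of the sterol branch were called in no treatment, and their means ran from −0.50 (PMVK, phosphomevalonate kinase) to 1.16 (TM7SF2, a sterol reductase) in HIPP. In P4 the same genes marked the ends, at −0.20 and 0.73, and in shCtBP2 too, at −0.14 and 0.48. By adjusted p alone ACAT2, MVD, FDPS, LSS, TM7SF2 and EBP were higher in HIPP and PMVK lower (limma adjusted p = 0.000198 for PMVK). In P4 ACAT2, MVK, MVD, FDPS, FDFT1, LSS, TM7SF2 and EBP were higher and none lower. TM7SF2 was the only enzyme of this branch past the test in shCtBP2 (0.48 ± 0.27, SD, n = 5, limma adjusted p = 0.00681), and it was higher on all 5 arrays there. NSDHL, HSD17B7 and IDI1, of later and earlier steps, passed the test in no treatment, NSDHL and HSD17B7 having means between −0.26 and 0.13. Of the branch, 3 genes in P4 (IDI1, NSDHL, HSD17B7), 2 in HIPP (MVK, FDFT1) and 1 in shCtBP2 (MVD) were below the variability filter and got no adjusted p.

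**Figure D2:**
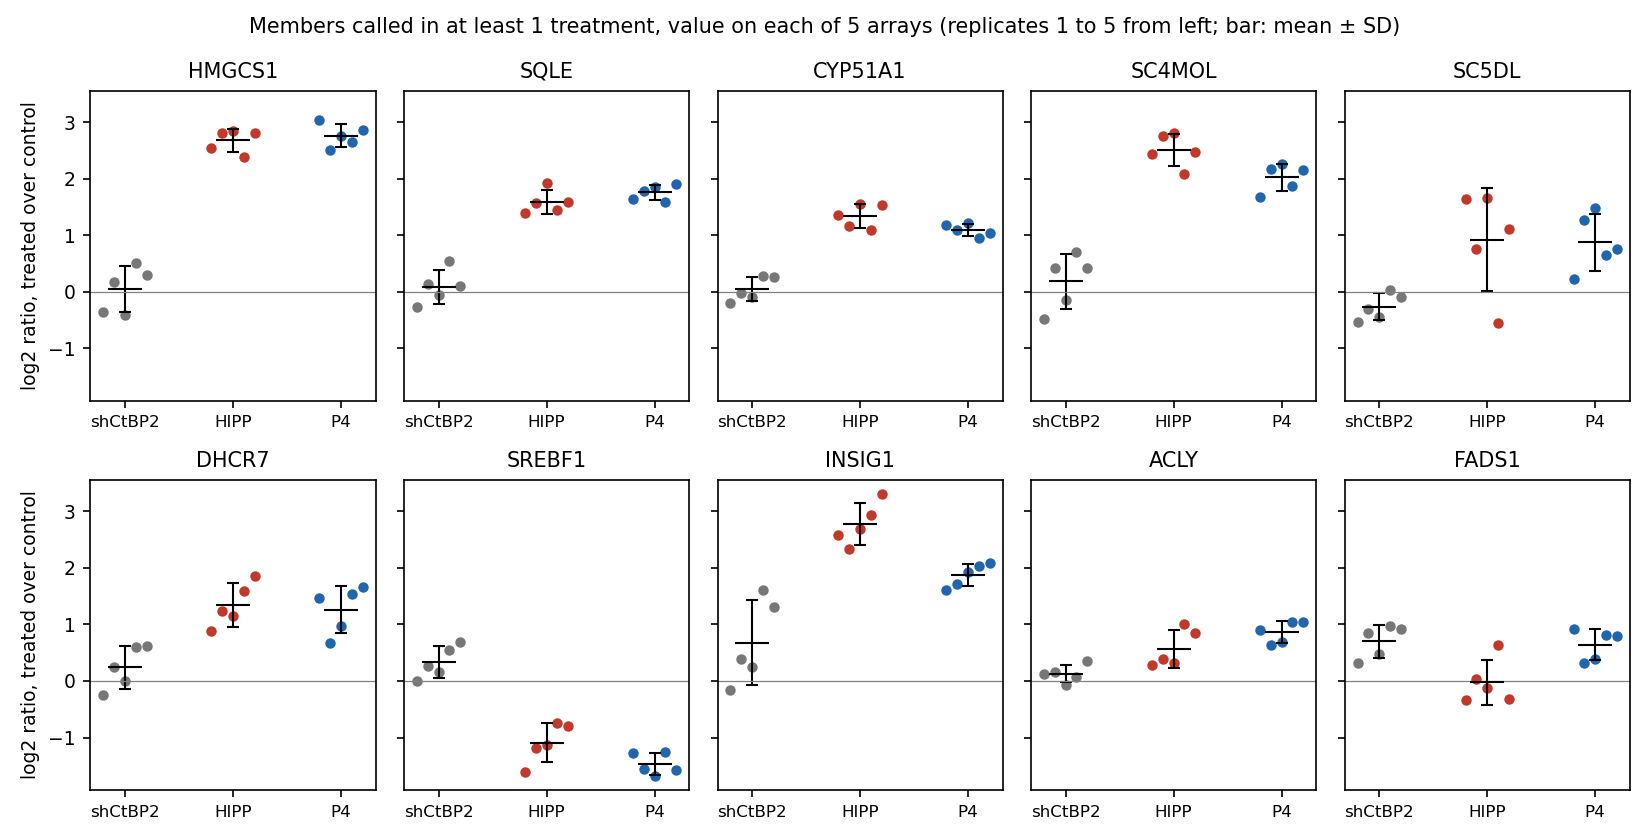
Log2 ratio of treated over control (y axis) on each of 5 arrays per treatment (points) for the 10 members called in at least 1 treatment, with the mean and 1 SD (bars). For HMGCS1, SQLE, CYP51A1 and SC4MOL the inhibitor arrays do not overlap the shCtBP2 arrays, whereas SC5DL spreads widely in HIPP and FADS1 is near 0 in HIPP alone.

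Among the regulators, INSIG1, a direct SREBP target and the protein that retains SCAP, had the largest mean in each inhibitor. It has 1 probe, at chr7:154537719-154537778 (hg17). The HIPP arrays read 2.59, 2.34, 2.69, 2.94 and 3.31 (2.77 ± 0.37, SD, n = 5, 6.84-fold, limma adjusted p = 1.0e-07) and the P4 arrays 1.61, 1.72, 1.93, 2.03 and 2.08 (1.88 ± 0.20, SD, n = 5, 3.67-fold, limma adjusted p = 2.0e-05). In shCtBP2 INSIG1 read −0.17, 0.39, 0.24, 1.61 and 1.31, a mean of 0.68 ± 0.75 (SD, n = 5, limma adjusted p = 0.0448) that rested on replicates 4 and 5. That call was lost without replicate 2 (limma adjusted p = 0.0721), without replicate 4 (0.44, limma adjusted p = 0.192) and without replicate 5 (0.52, limma adjusted p = 0.168). It was also lost with normexp and loess (limma adjusted p = 0.0884), with background-subtracted signals (limma adjusted p = 0.0609), without the variability filter (limma adjusted p = 0.0501) and with the methods' test of the channel signals (adjusted p = 0.321 in this 5 against 5 test), and so it held under 7 of 15 alternatives. The shCtBP2 arrays of slide 3 averaged 0.11 and those of slide 4 averaged 1.05, and with slide as a fixed block the estimate was −0.01 (limma adjusted p = 0.988).

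SREBF1 and SREBF2, the genes of the SREBP factors, moved in opposite directions under the inhibitors. SREBF1 fell on all 10 inhibitor arrays: it read −1.60, −1.18, −1.14, −0.74 and −0.79 in HIPP (−1.09 ± 0.35, SD, n = 5, limma adjusted p = 7.3e-06, short of 2.5-fold) and −1.27, −1.56, −1.68, −1.25 and −1.57 in P4 (−1.47 ± 0.19, SD, n = 5, limma adjusted p = 2.4e-06). In shCtBP2 it read −0.01, 0.27, 0.16, 0.54 and 0.69 (0.33 ± 0.28, limma adjusted p = 0.106), above all inhibitor arrays. Its probes, at chr17:17656144-17656203 and chr17:17656672-17656731 (hg17), read −1.15 and −1.03 in HIPP and −1.59 and −1.34 in P4. Whether they separate the transcripts of the SREBP-1a and SREBP-1c forms was not examined.

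SREBF2 was higher on all inhibitor arrays without reaching the fold thresholds, with means of 1.14 ± 0.38 in HIPP (SD, n = 5, 2.2-fold, limma adjusted p = 1.0e-05) and 0.74 ± 0.26 in P4 (SD, n = 5, 1.67-fold, limma adjusted p = 0.00118). In shCtBP2 its mean was −0.05 ± 0.29 (limma adjusted p = 0.85). SCAP, the escort of the SREBP factors, was lower in HIPP by adjusted p (−0.50 ± 0.32, SD, n = 5, limma adjusted p = 0.00291), while P4 gave −0.21 ± 0.30 (limma adjusted p = 0.181) and shCtBP2 −0.30 ± 0.08 (limma adjusted p = 0.114). INSIG2, the second INSIG gene, had means of −0.73 ± 0.75 in HIPP (SD, n = 5, limma adjusted p = 0.0163), −0.30 ± 0.55 in P4 (limma adjusted p = 0.33) and −0.14 ± 0.23 in shCtBP2 (limma adjusted p = 0.759). The HIPP arrays of INSIG2 reached from −1.77 to 0.07, so that its fall was uneven, in contrast to INSIG1. STARD4, which moves cholesterol between membranes, had means of 0.46 ± 0.91 in HIPP, 0.29 ± 0.68 in P4 and 0.50 ± 0.24 in shCtBP2, and passed the test in none (limma adjusted p = 0.183, 0.441 and 0.261).

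The stretch upstream of the gene start is shown for HMGCS1, SC4MOL and INSIG1, since their mean ratios in HIPP were the largest of the set in the main processing, and for SREBF2, since it was the sole member with a match to the sterol regulatory element searched for. The sequences are from RefSeq on GRCh38.p14, 5′ to 3′ on the gene's strand, 250 bases ending at the base before the start, at chr5:43313413-43313662 (minus strand), chr4:165327419-165327668 (plus strand), chr7:155297628-155297877 (plus strand) and chr22:41832855-41833104 (plus strand). Capitals mark CCAAT or its reverse complement, the box read by NF-Y, and in SREBF2 also TCACNCCAC.
HMGCS1: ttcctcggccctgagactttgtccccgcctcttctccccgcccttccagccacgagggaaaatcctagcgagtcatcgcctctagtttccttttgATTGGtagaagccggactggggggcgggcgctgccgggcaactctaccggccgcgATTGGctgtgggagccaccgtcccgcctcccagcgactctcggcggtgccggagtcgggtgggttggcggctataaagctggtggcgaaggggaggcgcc
SC4MOL: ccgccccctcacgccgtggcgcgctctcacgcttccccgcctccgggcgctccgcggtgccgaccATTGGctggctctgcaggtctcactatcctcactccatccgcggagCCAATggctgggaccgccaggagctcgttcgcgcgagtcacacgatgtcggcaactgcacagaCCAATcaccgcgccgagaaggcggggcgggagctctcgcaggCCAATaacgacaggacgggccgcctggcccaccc
INSIG1: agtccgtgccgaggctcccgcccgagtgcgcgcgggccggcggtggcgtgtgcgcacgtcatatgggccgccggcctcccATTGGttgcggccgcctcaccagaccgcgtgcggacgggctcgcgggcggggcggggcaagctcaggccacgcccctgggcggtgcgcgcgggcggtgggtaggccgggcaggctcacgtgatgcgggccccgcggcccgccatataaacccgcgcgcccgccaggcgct
SREBF2: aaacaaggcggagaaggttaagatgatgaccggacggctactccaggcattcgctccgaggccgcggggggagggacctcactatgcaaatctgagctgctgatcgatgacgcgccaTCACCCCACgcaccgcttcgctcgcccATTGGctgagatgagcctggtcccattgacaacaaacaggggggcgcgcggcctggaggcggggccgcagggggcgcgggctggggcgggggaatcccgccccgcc

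The upstream stretch shown for SC4MOL holds 4 CCAAT boxes and that of HMGCS1 holds 2, while INSIG1 and SREBF2 hold 1 each. The set was then searched on both strands in windows of 250 bases before to 50 after each RefSeq gene start. Of the 32 members 28 had such windows, 39 in all with some overlapping, and ACAT2, FDFT1, SQLE and FASN had none in the table used. HMGCS1 had a further window, at chr5:43313132-43313431 (minus strand), which held 0 CCAAT boxes. CCAAT was in 25 of the 39 windows (64.1%), against 34.6% of all 35116 windows of the same length, in 15 of the 20 windows of the sterol branch (75%), in 7 of the 12 of the fatty acid branch (58.3%) and in 4 of the 7 of genes called under both inhibitors (57.1%). GGGCGG, the Sp1 box, was in 35 of 39 (89.7%), against 45% of all. CACGTG, an E-box, was in 5 (12.8%, against 7.26% of all), TCACNCCAC in 1 (2.56%, against 1.13%), and TGATGNAAN, the composite element of ATF4, in 0 of 39 (against 3.61%). A match is a match of letters and does not show that a factor binds there, and windows of one gene that overlap share their matches.

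In the fatty acid branch ACLY was called in P4 and FADS1 in shCtBP2, and no enzyme was called in HIPP. ACLY, the citrate lyase that supplies cytosolic acetyl-CoA, read 0.91, 0.64, 0.70, 1.05 and 1.04 in P4 (0.87 ± 0.19, SD, n = 5, 1.82-fold, limma adjusted p = 7.5e-05). Without P4 replicate 4 or without P4 replicate 5 its mean was 0.82, under the 1.8-fold threshold. In HIPP it read 0.29, 0.40, 0.31, 1.01 and 0.85 (0.57 ± 0.33, SD, n = 5, limma adjusted p = 0.00074), and in shCtBP2 0.12, 0.16, −0.06, 0.08 and 0.35 (0.13 ± 0.15, limma adjusted p = 0.511). The P4 arrays lay above all knockdown arrays, but the lowest HIPP arrays overlapped the knockdown range. Its probe lies at chr17:37277522-37277582 (hg17).

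FADS1, the delta-5 fatty acid desaturase, was the only member whose knockdown call held without each shCtBP2 array in turn. It read 0.31, 0.84, 0.47, 0.97 and 0.91 in shCtBP2 (0.70 ± 0.29, SD, n = 5, 1.63-fold, limma adjusted p = 0.00539), and with slide as a fixed block 0.43 (limma adjusted p = 0.312). In P4 it read 0.91, 0.32, 0.38, 0.81 and 0.80 (0.64 ± 0.27, SD, n = 5, limma adjusted p = 0.00382), short of 1.8-fold, whereas the HIPP arrays read −0.33, 0.03, −0.13, 0.64 and −0.31 (−0.02 ± 0.40, limma adjusted p = 0.92). FADS1 was the single member for which HIPP and P4 differed (−0.66, 95% interval −1.10 to −0.23, limma adjusted p = 0.0497), and no member passed when any of 8 of the 10 inhibitor arrays was left out, the exceptions being HIPP replicate 4 and P4 replicate 2. Its probes lie at chr11:61326148-61326207 and chr11:61323702-61323761 (hg17).

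The other 6 enzymes of the fatty acid branch were called in no treatment. Their means ran from −0.75 (FASN, fatty acid synthase) to 0.87 (ACSS2, which activates acetate) in HIPP, from −0.50 to 0.74 for the same genes in P4, and from −0.23 (ACACA, acetyl-CoA carboxylase) to 0.33 (SCD, stearoyl-CoA desaturase) in shCtBP2. By adjusted p alone ACSS2, SCD and ELOVL6 were higher in HIPP and FASN lower (limma adjusted p = 0.00795, below control on all 5 arrays). In P4 ACSS2 and ELOVL6 were higher by the same measure, and FASN had a limma adjusted p of 0.08 with arrays from −1.11 to 0.14. ACACA was below the variability filter in every treatment and FADS2 in HIPP, as was ELOVL6 in shCtBP2. The ACACA mean joins 2 probes that differed. One read 0.59 in HIPP, −0.02 in P4 and −0.45 in shCtBP2, and the other −0.24, −0.60 and −0.01. Fitted on its own, the first passed the test in HIPP and shCtBP2 (limma adjusted p over all probes = 0.000458 and 0.0156). The second passed in P4 (limma adjusted p over all probes = 0.011).

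**Figure D3:**
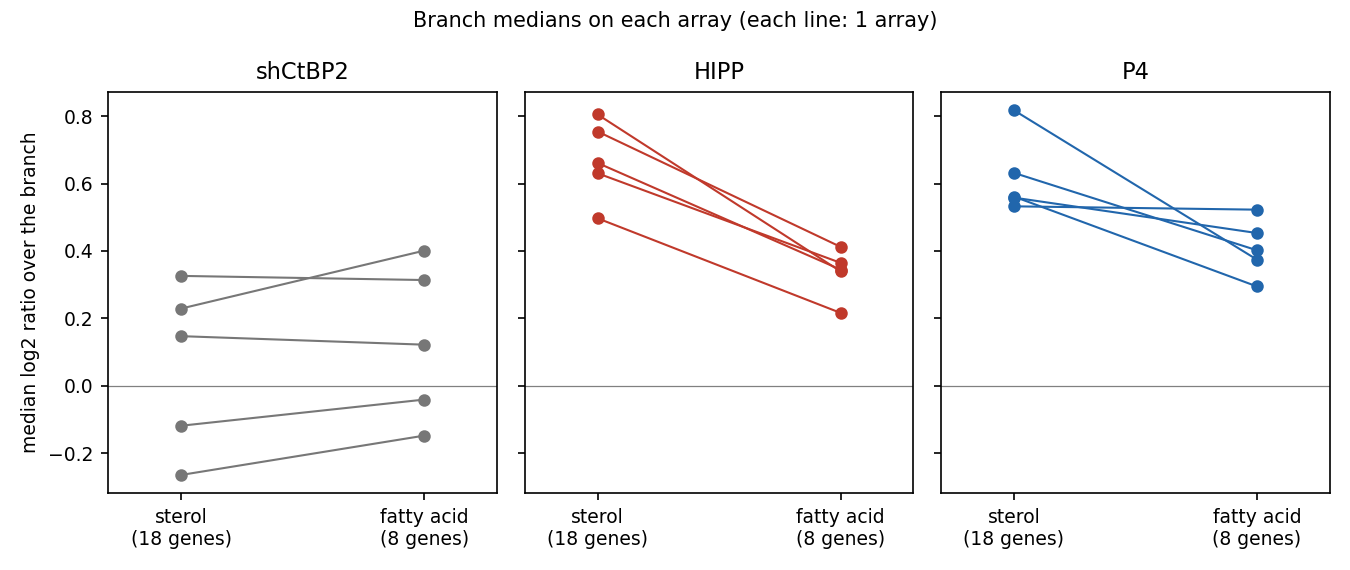
Median log2 ratio (y axis) over the 18 sterol branch genes and the 8 fatty acid branch genes (x axis) on each array, with a line joining the medians of 1 array. In HIPP and P4 each line falls from the sterol to the fatty acid branch, by 0.27 to 0.47 and by 0.01 to 0.44, and in shCtBP2 the lines lie around 0 with no common slope.

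Set beside each other, the sterol branch had a median of gene means of 0.67 in HIPP, 0.56 in P4 and 0.04 in shCtBP2, and the fatty acid branch 0.37, 0.42 and 0.12 (−0.12 in shCtBP2 with slide as a fixed block). The medians over all genes tested were 0.08, 0.11 and 0.04. On single arrays the sterol median exceeded the fatty acid median on 5 of 5 HIPP arrays (by 0.33 ± 0.08, SD, n = 5), on 5 of 5 P4 arrays (by 0.21 ± 0.17, SD, n = 5) and on 2 of 5 shCtBP2 arrays (difference −0.07 ± 0.08, SD, n = 5). These medians describe the lists and carry no test. By adjusted p 4 of 6 tested fatty acid genes were higher and 1 lower in HIPP, beside 24.9% and 23.9% of all genes, and 4 of 7 were higher and 0 lower in P4, beside 17.1% and 14.8%. The sterol branch had 12 of 16 higher and 1 lower in HIPP and 14 of 15 higher and 0 lower in P4, and the branches were not tested against each other.

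The difference between each inhibitor and the knockdown was then fitted. HIPP exceeded shCtBP2 for 15 of 31 tested members and was lower for 3, beside 12.8% and 14.6% of all genes tested. P4 exceeded shCtBP2 for 13 and was lower for 1, beside 6.44% and 6.44%, and with slide as a fixed block 6 members differed. P4 replicates 1 to 4 were alone on slide 1 and were scanned on another day than all other arrays, and no P4 array shared a slide with a shCtBP2 array, so slide and scan day can hardly be told apart from P4 here. P4 replicate 5, of the same scan day as the other treatments, read 2.87 for HMGCS1, 2.15 for SC4MOL, 2.08 for INSIG1 and −1.57 for SREBF1, beside means of 2.73, 1.99, 1.82 and −1.44 on slide 1. The difference was 2.64 for HMGCS1 in HIPP (95% interval 2.24 to 3.03, limma adjusted p = 4.8e-07) and 2.72 in P4 (2.32 to 3.11, limma adjusted p = 1.1e-06). For SC4MOL it was 2.33 (1.86 to 2.80) and 1.84 (1.37 to 2.31), and for INSIG1 2.10 (1.46 to 2.73) and 1.20 (0.57 to 1.83), each past the test. SREBF1 differed from the knockdown in the other direction, by −1.42 (−1.81 to −1.03) in HIPP and −1.80 (−2.19 to −1.41) in P4. SREBF2 differed by 1.19 (0.77 to 1.61) and 0.79 (0.37 to 1.22), also past the test. TM7SF2, past the test in all treatments taken singly, was higher in HIPP than in shCtBP2 (0.68, limma adjusted p = 0.00259) while its P4 difference was 0.25 (−0.06 to 0.56, limma adjusted p = 0.296).

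Between HIPP and P4, whose doses on these arrays were not matched as far as is known, 1 of 31 tested members differed (FADS1), beside 4.91% of all genes higher in HIPP and 6.26% lower. For INSIG1 the difference was 0.90 (95% interval 0.27 to 1.53, limma adjusted p = 0.0657), for SC4MOL 0.49 (0.02 to 0.95, limma adjusted p = 0.185) and for HMGCS1 −0.08 (−0.48 to 0.32, limma adjusted p = 0.882). For SREBF1 it was 0.38 (−0.01 to 0.77, limma adjusted p = 0.22). With the replicate number as a block 2 members differed. Likeness of the compounds on these genes is not shown by the missing calls.

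Slides 2 and 3 held arrays of more than 1 treatment, which gives values within a slide for 6 of the 10 inhibitor arrays. On slide 2 HMGCS1 averaged 2.74 over the 3 HIPP arrays and 2.87 on the P4 array, and INSIG1 2.54 and 2.08. On slide 3 HMGCS1 averaged 2.60 over the 2 HIPP arrays and −0.09 over the 2 shCtBP2 arrays, and INSIG1 3.12 and 0.11. The 2 HIPP and 2 shCtBP2 arrays of slide 3 did not overlap for either gene.

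Some members varied widely between the arrays of a treatment. An SD of at least 0.4 in both HIPP and P4 was found for 8 members, IDI1, FDFT1, NSDHL, HSD17B7, SC5DL, STARD4, INSIG2 and FASN, a limit chosen after the values were seen. Of these, 5 had their lowest HIPP value on replicate 4 and the other 3 on replicate 2, and 6 had their lowest P4 value on replicate 1. FASN differed, reading −0.39 on HIPP replicate 4 and −1.29 on HIPP replicate 2. SC5DL, for example, read −0.55 on HIPP replicate 4 and 1.65 on HIPP replicate 3, and STARD4 −0.99 and 1.24. DHCR7, ACLY and SREBF2 took higher values on HIPP replicates 4 and 5, which were on another slide than HIPP replicates 1 to 3, than on those. The share of control spots well above background was 77.1% and 79.3% on HIPP replicates 4 and 5 and 70.3%, 70.4% and 81% on HIPP replicates 1 to 3, and the part of slide or signal in this spread was not tested.

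The probes of a gene did not always give the same ratio. Of the 16 members with several probes, 3 had probe means over 1 apart on the log2 scale in a treatment, MVK, ACSS2 and SCD, all in HIPP. These, ACACA, LSS and TM7SF2 were singled out after their values were seen. SCD read 1.60 ± 0.21 (SD, n = 5, limma adjusted p over all probes = 2.2e-06) in HIPP at chr10:102110682-102110741, 0.32 ± 0.32 at chr10:102113907-102113966 and 0.07 ± 0.28 at chr10:102097940-102097999 (hg17). ACSS2 read 1.41 ± 0.24 (limma adjusted p over all probes = 8.4e-08) in HIPP at chr20:32934388-32934447 and 0.34 ± 0.29 at chr20:32979004-32979062. With each probe fitted on its own, 11 of the 51 member probes were called higher in HIPP and 0 lower, beside 4.12% and 4.32% of all probes tested, and SCD, ACSS2 and TM7SF2 each had 1 probe among them. In P4 14 were called higher and 2 lower, beside 4.43% and 5.08%, and in shCtBP2 6 higher and 0 lower, beside 3.35% and 3.56%. The shCtBP2 calls included 1 probe each of the sterol enzymes TM7SF2 and SC4MOL (0.70 and 0.59, limma adjusted p over all probes = 0.0016 and 0.0443). This SC4MOL probe is the one listed on the opposite strand, well above background in the control channel of 10 of 15 arrays. The SC4MOL probe on the strand of the gene read −0.23 in shCtBP2 (limma adjusted p over all probes = 0.623). The TM7SF2 probe at chr11:64640165-64640224 (hg17) read 1.63 in HIPP and 1.07 in P4, and the other, at chr11:64637567-64637626, read 0.26 in shCtBP2, 0.70 in HIPP and 0.39 in P4.

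MVK, mevalonate kinase, read 0.78 ± 0.13 in HIPP and 0.73 ± 0.10 in P4 at chr12:108497661-108497720 but −0.23 ± 0.39 and −0.03 ± 0.49 at chr12:108486567-108486626. The LSS probes, for the cyclase that makes lanosterol, fell into 2 pairs. Those at chr21:46432995-46433054 and chr21:46433015-46433074, which overlap, read 1.01 and 1.07 in HIPP and 0.88 and 0.96 in P4. Those at chr21:46433471-46433530 and chr21:46433727-46433786 read 0.33 and 0.12 in HIPP and 0.36 and 0.40 in P4. Exon, intron or UTR were not assigned to the probes, since no hg17 annotation was used here, and which transcripts each probe reads was not tested.

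**Figure D4:**
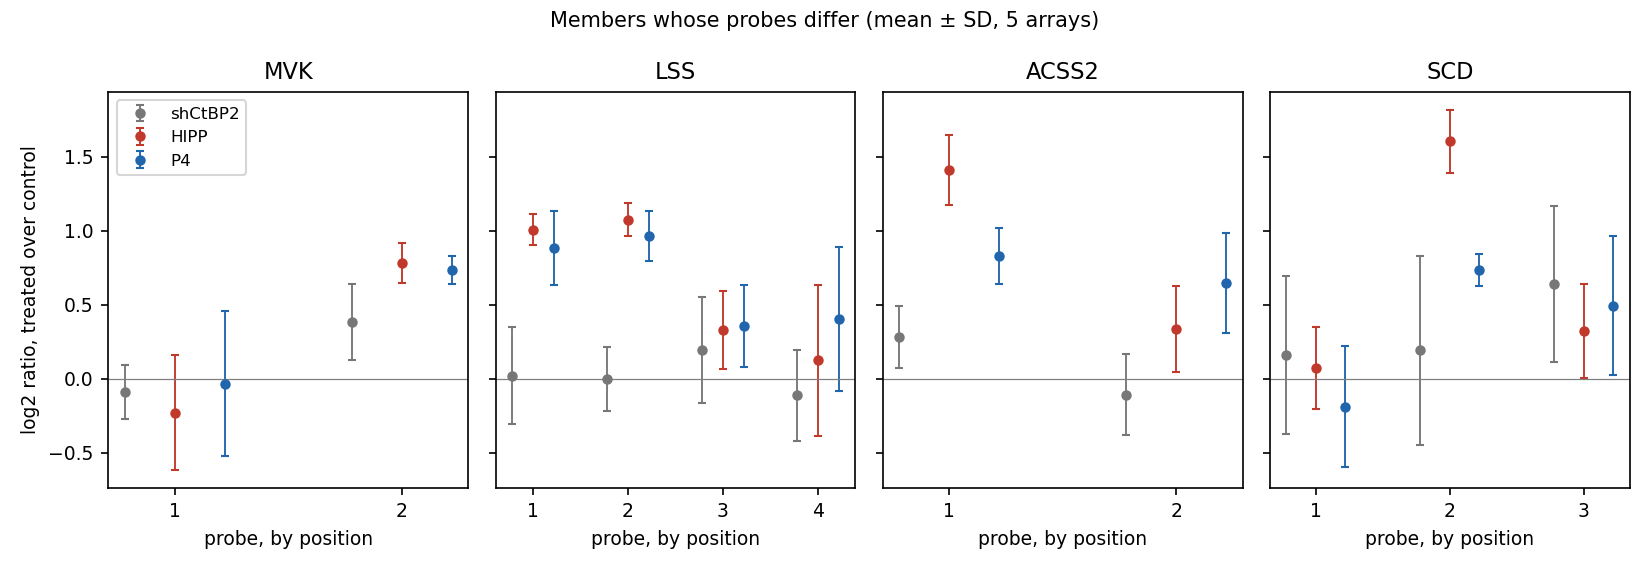
Log2 ratio of treated over control (y axis, mean with 1 SD over 5 arrays) for each probe (x axis, in order of chromosome position) of MVK, LSS, ACSS2 and SCD. In HIPP 1 SCD probe reads 1.60 while the others read 0.07 and 0.32, and for LSS 2 probes read 1.01 and 1.07 and 2 read 0.33 and 0.12.

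Other genes of sterol and fatty acid metabolism were taken from lists set out with the members. Of 9 further SREBP targets 1 was called higher in HIPP (8 tested, beside 3.43% of all genes) and in P4 (9 tested, beside 4.29%) and none lower. It was TMEM97, a sterol-responsive membrane protein, at 1.59 ± 0.43 (SD, n = 5, limma adjusted p = 1.4e-06) and 1.04 ± 0.42 (limma adjusted p = 0.000242), against −0.26 ± 0.16 in shCtBP2. By adjusted p alone 5 of them were higher and 2 lower in HIPP, and 3 higher and 2 lower in P4, beside 24.9% and 23.9% of all genes in HIPP and 17.1% and 14.8% in P4. Of 12 genes of isoprenoid use, PDSS2, a subunit of the synthase of the coenzyme Q side chain, was called lower in HIPP (−1.60 ± 0.60, SD, n = 5, limma adjusted p = 2.4e-06), 1 of 10 tested, beside 3.61% of all genes. By adjusted p alone 4 of these genes were higher and 4 lower in HIPP, and 1 higher and 5 lower in P4.

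In the list of 7 genes of sterol esterification and export, ABCG1, a sterol exporter, and MYLIP, a ubiquitin ligase, were called lower under both inhibitors, and no gene was called higher. ABCG1 read −1.77 ± 0.51 in HIPP (SD, n = 5, limma adjusted p = 6.5e-07) and −1.79 ± 0.33 in P4 (limma adjusted p = 3.5e-06), against −0.24 ± 0.24 in shCtBP2. MYLIP read −1.46 ± 0.26 in HIPP (SD, n = 5, limma adjusted p = 3.0e-08) and −2.15 ± 0.18 in P4 (limma adjusted p = 5.5e-09), against 0.05 ± 0.05. Both were below control on each of the inhibitor arrays, as SREBF1 was. By adjusted p alone 1 gene of this list was higher and 3 lower of 6 tested in HIPP, and 1 higher and 2 lower of 6 in P4, beside 24.9% and 23.9% of all genes in HIPP and 17.1% and 14.8% in P4. The shares of all genes called lower were 3.23% in shCtBP2, 3.61% in HIPP and 4.17% in P4. NR1H2 and NR1H3, the genes of the liver X receptors, were not called in any treatment. NR1H2 was the gene counted as higher by adjusted p alone. It read 0.31 ± 0.29 in HIPP (limma adjusted p = 0.0327) and 0.30 ± 0.25 in P4 (limma adjusted p = 0.05). NCEH1, a cholesteryl ester hydrolase, was called lower in shCtBP2 alone (−0.87 ± 0.08, SD, n = 5, limma adjusted p = 0.000743), at 0.20 ± 0.34 in HIPP and −0.23 ± 0.38 in P4; the difference between treatments was not tested.

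Among 17 further genes of fatty acid synthesis and activation the sole call was ME1, the malic enzyme that yields NADPH, higher in P4 (0.97 ± 0.07, SD, n = 5, limma adjusted p = 3.1e-06) and at 0.43 ± 0.24 in HIPP. Of 12 genes of fatty acid oxidation, CPT1A, the gate of mitochondrial fatty acid import, was called higher in HIPP (1.48 ± 0.49, SD, n = 5, limma adjusted p = 1.1e-06) and in P4 (1.31 ± 0.27, limma adjusted p = 1.7e-05), and CPT2 was called lower in P4 (−0.97 ± 0.34, limma adjusted p = 0.000102). By adjusted p alone 2 genes of oxidation were higher and 2 lower of 8 tested in HIPP, and 3 higher and 3 lower of 9 in P4. Of the genes of synthesis 5 were higher and 2 lower of 13 tested in HIPP, and 3 higher and 1 lower of 13 in P4. The shares over all genes were 24.9% higher and 23.9% lower in HIPP and 17.1% and 14.8% in P4 by this measure, and 3.43% and 3.61% in HIPP and 4.29% and 4.17% in P4 for called genes. No gene of these lists was called higher in shCtBP2.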

How the data were processed

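RNA of treated cells (Cy5) and control cells (Cy3) was hybridised to 15 Agilent whole human genome arrays, 5 per treatment. Per the file headers, background subtraction, detrending and linear and lowess dye normalization were done by the authors in Feature Extraction 9.5.3.1, and the deposited scanner files hold signal intensity per spot and channel. The deposited value table holds the log10 ratio of Cy5 over Cy3 that the authors' software gave. This normalization sets the bulk of genes near 0, so ratios are relative to it. The number of arrays limits the precision.

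Here log2 of the corrected Cy5 over Cy3 intensity was taken per spot, the 78 to 265 gene spots per array marked as outliers were left out, and spots were averaged to probes and probes to genes. Genes measured on at least 3 of 5 arrays were kept, and, as in the study's methods, the 11% with the lowest interquartile range were removed. The 27582 genes left per treatment were fitted with limma 3.58.1 in R 4.3.3, all 15 arrays in one fit, and p-values were adjusted by Benjamini-Hochberg over all genes tested. The limma p-values rest on the spread between arrays labelled as biological replicates, pooled over the 3 treatments. They do not rest on the SD printed beside them. STARD4 in shCtBP2, for example, had an SD of 0.24 and a fitted standard error of 0.28, beside an SD of 0.91 in HIPP. Same-numbered shCtBP2 and P4 arrays deviated together (correlations of 0.138 to 0.352 in all 5 pairs), a pairing seen in the data and not stated in the labels. The fit was tested on simulated data. Tables and plots were made with Python 3.11.15, pandas 2.3.3 and matplotlib 3.10.9. Probe positions are those of the array annotation (hg17), and promoters are from RefSeq (GRCh38.p14).

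Members called in at least 1 treatment were given array by array, regulators by their means, and other members by range and count. From the other lists up to 3 called genes with the largest ratio were named. A further list of related genes is not reported here. Members, lists and tests were chosen with earlier results of these data known. Alternatives were other background corrections, the value table, slide and replicate number as blocks, 1 probe per gene, other filters and thresholds, the methods' t-test and leaving out each array. Fitting each probe on its own was added after seeing the data.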

Additional observations from a re-analysis of the deposited data

Results flagged for a closer look

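MVD, the mevalonate diphosphate decarboxylase, read −0.37 on shCtBP2 replicate 1, while the other 4 arrays lay between 0.13 and 0.19. The gap to the nearest array was 0.906 of the whole range, above the critical value of 0.71 for groups of 5. It was the 1 group of 102 tested that passed, and chance takes about 1 in 20 past it.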

How the results depend on the processing

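Among the alternatives, the counts of called members moved by over 1.5 times in these cases. Members called higher in shCtBP2 (2) numbered 1 with normexp and loess, with background-subtracted signals, without the variability filter and with the methods' t-test, 0 with slide as a fixed block and 4 with the brightest probe. In HIPP the 6 became 3 with normexp and loess, 14 at 1.5-fold and 18 with adjusted p alone, and the 0 lower became 3 and 5 under the latter thresholds. In P4 the 8 became 13 at 1.5-fold and 20 with adjusted p alone. Members that differed between P4 and shCtBP2 (14) numbered 6 with slide as a fixed block. Members that differed between HIPP and P4 (1) numbered 0 with normexp and loess, with slide as a fixed block and without the variability filter, 2 with the value table, with slide as a random block and with the replicate number as a block, and 3 with background-subtracted signals, the brightest probe and spots well above background.

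The sterol median in HIPP was 0.50 with normexp and loess, and the fatty acid median was 0.30 with these and 0.45 with the brightest probe. The fatty acid median in shCtBP2 was −0.12 with slide as a fixed block. INSIG1 in shCtBP2 read −0.0088 with slide as a fixed block. CYP51A1, DHCR7 and SC4MOL in HIPP fell under 2.5-fold with normexp and loess (1.24, 1.29 and 1.02), and SC4MOL in P4 read 1.05. With slide as a fixed block DHCR7, INSIG1 and ACLY in P4 read 1.96, 2.54 and 1.28, against 1.26, 1.88 and 0.87. The cause of these shifts was not tested. The median of all genes in P4 was 0.11, against 0.00 in the value table and 0.20 with slide as a fixed block. With normexp and loess 151 genes in all were called higher in HIPP, against 947.

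Leaving out each array gave 1 to 2 members higher in shCtBP2, 4 to 6 in HIPP and 7 to 8 in P4. Differences numbered 16 to 19 (HIPP against shCtBP2), 10 to 13 (P4 against shCtBP2) and 0 to 2 (HIPP against P4). Sterol medians stayed between 0.63 and 0.71 in HIPP and between 0.57 and 0.62 in P4. In shCtBP2 the sterol median, 0.04 with all arrays, ran from −0.03 to 0.12 and so changed sign. The 17 called values of single members, each under 15 alternatives, kept direction and call in 228 of 255 cases, lost the call in 26 and turned sign in 1. The 13 values of these genes that were not called stayed so in all 195 cases, with the other sign in 17.

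Arrays with the same replicate number in different treatments correlated over 0.1 in their deviations in 13 of 15 pairs (median 0.169, from −0.0276 to 0.471), against 19 of 60 pairs with different numbers (median −0.087). Every pair passed 0.1 between shCtBP2 and P4 and 4 of 5 did in the other comparisons, and HIPP replicate 1 correlated best with P4 replicate 2. With the replicate number as a block 21 members differed between HIPP and shCtBP2, 17 between P4 and shCtBP2 and 2 between HIPP and P4, and no count of called members changed.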
